A study of Mus musculus with 6 samples.

Results

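Expression of 10 genes of the tumor necrosis factor (TNF), interleukin-1 (IL-1) and NF-kB circuit was examined in sorted mouse brain astrocytes from streptozotocin (STZ)-treated and vehicle-treated mice. The genes were the cytokines Tnf, Il1a, Il1b, Il18 and Il33, the inhibitors Nfkbia and Tnfaip3, and the NF-kB subunit genes Nfkb1, Nfkb2 and Relb. They were chosen by gene symbol from the 45777 genes of the expression table, with earlier results of these data known. All 10 were among the 22337 genes that had a count in every sample and were tested. Tnf was on average 3.69-fold higher and Nfkbia 1.70-fold higher in the STZ samples, each without overlap between the groups, whereas the values of the other 8 genes overlapped. Neither difference passed the threshold of edgeR after adjustment over all genes, and both passed that of DESeq2.

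Both groups were male C57BL/6 mice carrying Aldh1l1 cre/ERT2 and tdTomato fl/fl (Ai14), given as WT in the sample labels, and all received tamoxifen (75 mg/kg for 5 days) to switch on the red fluorescent protein tdTomato. The red label thus depends on the Aldh1l1 driver, which is active in astrocytes. When 8 weeks old, the STZ group (labelled hyperglycemic) was injected once intraperitoneally with 150 mg/kg of STZ, which kills pancreatic beta cells and so lowers insulin, and the vehicle group (labelled normoglycemic) received sodium citrate buffer alone. Each sample was a pool of tdTomato-positive cells from 3 mice, with 3 samples per group, so the spread between samples is that between pools, and no sample was labelled as given lipopolysaccharide. The interval from injection to sorting is not stated in the labels or the written methods.

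TNF and IL-1 family cytokines signal through receptors and adaptors that activate the IkB kinase complex, which marks the inhibitor IkB-alpha (encoded by Nfkbia) for destruction and frees NF-kB dimers to enter the nucleus. NF-kB in turn induces its own brakes, among them Nfkbia and Tnfaip3 (encoding A20, a ubiquitin-editing enzyme), together with its subunit genes Nfkb1, Nfkb2 and Relb and many cytokine genes. In the brain, microglia and other myeloid cells are the best-known sources of TNF and IL-1, while IL-33 is made by astrocytes and oligodendrocytes.

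The promoter windows of 4 genes are shown because Tnf and Nfkbia are the genes whose groups did not overlap, and Tnfaip3 and Nfkb2 are feedback genes with NF-kB consensus matches whose groups overlapped. Each window runs from 250 bases before to 50 bases after a transcription start of the RefSeq annotation of GRCm38.p6, the assembly behind mm10, and is written 5′ to 3′ along the gene. Capitals mark matches, on either strand, to the NF-kB (kappa B) consensus or to TATAAA. The windows are chr17:35201958-35202257 (minus strand) for Tnf, chr12:55492598-55492897 (minus strand) for Nfkbia, chr10:19015361-19015660 (minus strand) for Tnfaip3 and chr19:46304487-46304786 (plus strand) for Nfkb2.
Tnf: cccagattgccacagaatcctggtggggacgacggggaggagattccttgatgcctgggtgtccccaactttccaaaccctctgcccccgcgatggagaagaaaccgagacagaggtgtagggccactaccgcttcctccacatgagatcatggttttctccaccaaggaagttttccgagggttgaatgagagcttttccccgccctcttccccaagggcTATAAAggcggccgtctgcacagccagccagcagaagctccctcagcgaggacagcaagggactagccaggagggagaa
Nfkbia: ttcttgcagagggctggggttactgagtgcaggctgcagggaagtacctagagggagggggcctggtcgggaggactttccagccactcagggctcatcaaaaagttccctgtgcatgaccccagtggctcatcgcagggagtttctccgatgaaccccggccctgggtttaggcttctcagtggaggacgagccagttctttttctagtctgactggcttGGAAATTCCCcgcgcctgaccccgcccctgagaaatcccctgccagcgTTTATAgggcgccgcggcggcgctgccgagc
Tnfaip3: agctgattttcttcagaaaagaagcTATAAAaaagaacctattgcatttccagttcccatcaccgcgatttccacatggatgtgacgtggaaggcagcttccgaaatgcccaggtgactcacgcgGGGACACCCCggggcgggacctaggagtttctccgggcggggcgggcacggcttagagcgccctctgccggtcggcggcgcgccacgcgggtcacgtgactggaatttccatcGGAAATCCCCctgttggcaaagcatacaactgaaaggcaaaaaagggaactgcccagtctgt
Nfkb2: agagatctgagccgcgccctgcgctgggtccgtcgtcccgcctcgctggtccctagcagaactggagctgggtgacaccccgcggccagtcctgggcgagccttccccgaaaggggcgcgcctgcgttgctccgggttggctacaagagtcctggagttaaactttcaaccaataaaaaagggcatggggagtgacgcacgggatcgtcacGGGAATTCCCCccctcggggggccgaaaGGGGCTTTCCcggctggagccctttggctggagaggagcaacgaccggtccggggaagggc

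In the Nfkbia window, an NF-kB consensus match began 29 bases before the start, and the second set of capitals, TATAAA read on the opposite strand, lay after the start. The Tnfaip3 window held NF-kB consensus matches 125 and 12 bases before the start, in addition to TATAAA 225 bases before it. The Nfkb2 window held 3, of which the pair at 39 and 38 bases before the start overlap in 1 run of capitals, and the other began 11 bases before the start. The Tnf window held TATAAA 29 bases before the start and no NF-kB consensus match, which says only that those letters are absent from these 300 bases. Of the 10 genes, 8 matched the promoter table, with 12 windows in all. Windows with an NF-kB consensus match made up 5 of these 12, from Nfkbia, Tnfaip3 and Nfkb2, compared with 8.46% of the 32851 windows in the table. By gene, 3 of the 8 had a match, and the share by gene over the 27025 genes with windows was not counted. The 2 Nfkb2 windows not shown overlap and share 1 match, GGGACTTTCC, which counts in both. TATAAA occurred in 8 of the 12 windows, compared with 13.6% of all windows, and the cytokine genes Tnf, Il1a and Il1b carried it 29, 32 and 31 bases before the start. No windows were matched for Nfkb1 and Relb. The matches are a description of the letters and were not used in any test.

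The samples were sequenced to similar depth, with 52529048 to 58749115 counts, so that 3 counts corresponded to 0.0511 to 0.0571 CPM (counts scaled to library size). The lowest count of any of the 10 genes was 22, for Tnf in vehicle replicate 2. The 10 astrocyte markers summed to 6189 to 7254 FPKM (a level corrected for transcript length and depth) per sample. The 8 choroid plexus and ependymal markers, led by Ttr, summed to 4341 to 13012 FPKM and exceeded the astrocyte sum in all samples but vehicle replicate 1 and STZ replicate 2. In normalized CPM, which leaves transcript length uncorrected, the astrocyte sum was the higher in all 6 samples. It was 23535 to 28003 normalized CPM, against 6040 to 17772 for the choroid plexus and ependymal markers. The 12 microglial markers summed to 442 to 623 FPKM and the 8 neutrophil markers to 197 to 1736 FPKM. The 12 oligodendrocyte lineage markers summed to 360 to 1298 FPKM, highest in STZ replicate 1 and next in vehicle replicate 1 (900 FPKM). No gene of any marker list was at 0 in all samples. In such bulk samples, fewer cells of a type and less RNA per cell cannot be told apart.

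The levels of the 10 genes, as mean FPKM over the 6 samples, spanned from 164 for Il18 to 0.928 for Tnf. Il18, a cytokine stored as an inactive precursor, ranked above 98.5% of the tested genes, followed by Nfkbia with 87.6 FPKM, Il33, a nuclear alarmin cytokine, with 41.3 FPKM and Il1b with 26.6 FPKM. The subunit genes were lower, with 4.41 FPKM for Nfkb1, 3.46 FPKM for Relb and 2.21 FPKM for Nfkb2. At the low end were Tnfaip3 with 1.14 FPKM, Il1a with 0.969 FPKM and Tnf with 0.928 FPKM, the last of which ranked above 36.0% of the tested genes. Between neighbours in this order, the ranges over the 6 samples overlapped for Il33 and Il1b, for Tnfaip3 and Il1a, and for Il1a and Tnf, and did not overlap for the other 6 pairs.

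**Figure D1:**
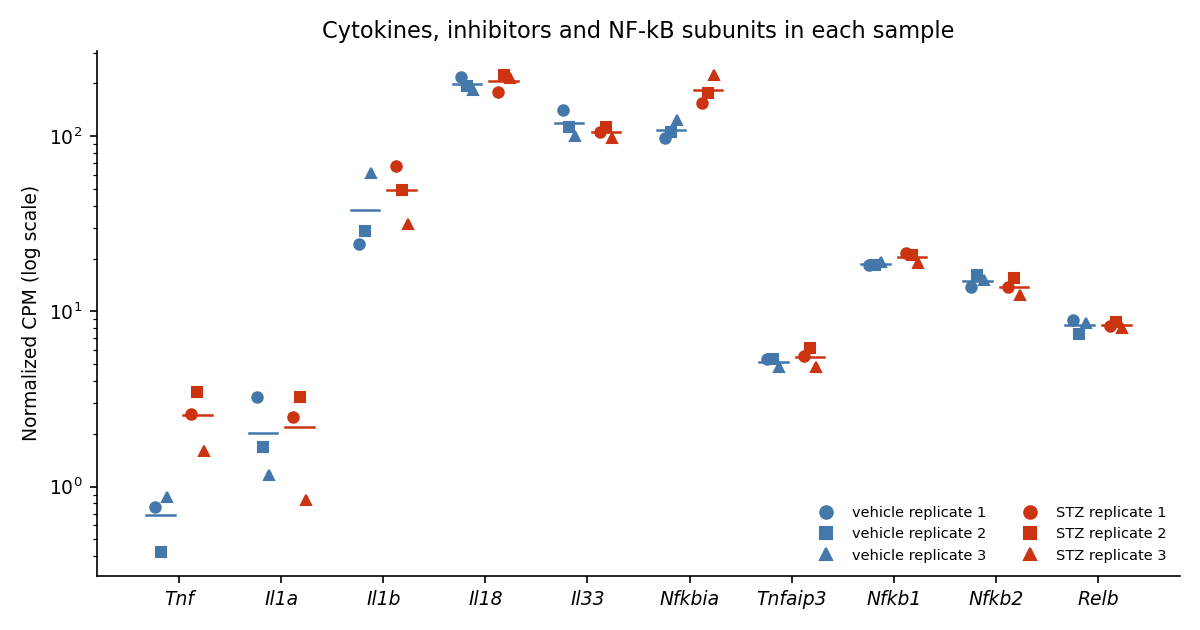
Normalized CPM (log axis) of the 10 genes in each of the 3 vehicle (blue) and 3 STZ (red) samples, with a bar at each group mean. The groups are apart for Tnf (0.424 to 0.873 against 1.60 to 3.45) and Nfkbia (98.0 to 123 against 155 to 223) and overlap for the other 8 genes.

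Tnf, the founding ligand of its family, lies at chr17:35199367-35202007 (NCBI gene 21926). It had 41, 22 and 50 counts in vehicle replicates 1 to 3, and 157, 201 and 94 counts in STZ replicates 1 to 3. Scaled to library size with TMM factors, these were 0.765, 0.424 and 0.873 normalized CPM with vehicle and 2.59, 3.45 and 1.60 normalized CPM with STZ. All 3 STZ samples lay above all 3 vehicle samples, and the lowest count stood above the 3 counts taken as the detection floor, with an exact 95% Poisson interval of 13.8 to 33.3 counts that covers counting error only. The mean was 0.687 ± 0.234 normalized CPM in the vehicle group and 2.55 ± 0.927 in the STZ group (SD, n = 3 each), and the log2 fold change was 1.88 (SE 0.389, 95% interval 0.98 to 2.79). By edgeR's quasi-likelihood test, Tnf ranked 154th of the tested genes, with an adjusted p of 0.218. DESeq2, which the study used, gave an adjusted p of 0.000866 for Tnf.

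Il1a (chr2:129299609-129310186, NCBI gene 16175), which encodes IL-1 alpha, was close to Tnf in mean level over the 6 samples. In the vehicle group Il1a was higher than Tnf (means of 0.903 and 0.375 FPKM), and Il1a did not separate the groups. Its values were 3.25, 1.68 and 1.17 normalized CPM with vehicle and 2.51, 3.25 and 0.834 with STZ. The highest values of the 2 groups were alike, and the lowest sample was STZ replicate 3. The log2 fold change of Il1a was 0.11 (SE 0.545), with a 95% interval of -1.16 to 1.38 (edgeR, adjusted p = 0.959), the widest of the 10 genes, reaching beyond 2-fold in either direction.

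Il1b (chr2:129364569-129371164, NCBI gene 16176) encodes IL-1 beta, which is cleaved to its active form by inflammasomes. It had 24.1, 28.6 and 61.5 normalized CPM with vehicle and 68.0, 49.2 and 31.6 with STZ. Vehicle replicate 3 lay above 2 of the STZ samples, and STZ replicate 3 lay close to the lower 2 vehicle samples. The log2 fold change was 0.38 (SE 0.391, 95% interval -0.53 to 1.29; edgeR, adjusted p = 0.742). Without vehicle replicate 3 it was 0.90 (adjusted p = 0.328, edgeR), and without STZ replicate 1 it was 0.09.

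Il18 and Il33 were the cytokines with the highest levels. Il18 (chr9:50554700-50581841, NCBI gene 16173) had 219, 193 and 184 normalized CPM with vehicle and 179.8, 225 and 216 with STZ, and its fitted fold of 1.04 had a 95% interval of 0.875 to 1.24 (edgeR, adjusted p = 0.869). Il33 (chr19:29925113-29960718, NCBI gene 77125) had 142, 112 and 101 normalized CPM with vehicle and 106, 112 and 97.6 with STZ, with a fold of 0.890 (95% interval 0.722 to 1.10; edgeR, adjusted p = 0.646). For both genes the intervals stayed within 1.5-fold in either direction.

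Nfkbia (chr12:55489409-55492647, NCBI gene 18035), the inhibitor that holds NF-kB in the cytoplasm, had the smallest edgeR p of the 10 genes. Its values were 98.0, 105 and 123 normalized CPM in vehicle replicates 1 to 3, and 155, 175 and 223 in STZ replicates 1 to 3. Each STZ sample lay above each vehicle sample, and with 5255 to 13083 counts per sample the counting error was small. The mean was 109 ± 12.8 normalized CPM in the vehicle group and 184 ± 34.7 in the STZ group (SD, n = 3 each), and the log2 fold change was 0.76 (SE 0.146, 95% interval 0.42 to 1.10). With edgeR, Nfkbia ranked 111th of the tested genes (adjusted p = 0.195), and DESeq2 gave an adjusted p of 0.000412. The samples that were highest differed between the genes, since STZ replicate 3 had the most Nfkbia and the least Tnf of the STZ samples.

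Tnfaip3 (chr10:19000910-19015410, NCBI gene 21929), the other feedback inhibitor, had 5.35, 5.32 and 4.80 normalized CPM with vehicle and 5.54, 6.18 and 4.82 with STZ. STZ replicate 3 lay within the vehicle range. The fold was 1.07 (95% interval 0.810 to 1.41; edgeR, adjusted p = 0.862), so that a change as large as the mean fold of 1.70 of Nfkbia lay outside its interval.

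Among the subunit genes, Nfkb1 (chr3:135584655-135691969, NCBI gene 18033), encoding p105 and its product p50, had the smallest standard error of its log2 fold change (0.0937). It had 18.4, 18.4 and 19.2 normalized CPM with vehicle and 21.5, 20.9 and 18.8 with STZ, a fold of 1.09 (95% interval 0.940 to 1.27; edgeR, adjusted p = 0.626). STZ replicate 3 again fell within the vehicle range. Nfkb2 (chr19:46300994-46312400, NCBI gene 18034), encoding p100 and p52 of the alternative pathway, had 13.8, 16.0 and 15.1 normalized CPM with vehicle and 13.7, 15.5 and 12.4 with STZ, a fold of 0.924 (95% interval 0.755 to 1.13; edgeR, adjusted p = 0.765). Relb (chr7:19606217-19629438, NCBI gene 19698), whose product pairs with p52, had 8.95, 7.42 and 8.55 normalized CPM with vehicle and 8.26, 8.71 and 7.98 with STZ, and its log2 fold change was 0.0016 (95% interval -0.33 to 0.33; edgeR, adjusted p = 0.998). For all 3 subunit genes the intervals stayed within 1.5-fold. Strand is not stated to have been used in counting, and reads could therefore not be told apart from those of overlapping genes for Il1a (Gm14023), Il1b (Il1bos), Il18 (Bco2 and Tex12), Il33 (Gm41832), Nfkb1 (Gm46827) and Nfkb2 (4833438C02Rik and Psd), while Tnf, Nfkbia, Tnfaip3 and Relb overlap no annotated gene.

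**Figure D2:**
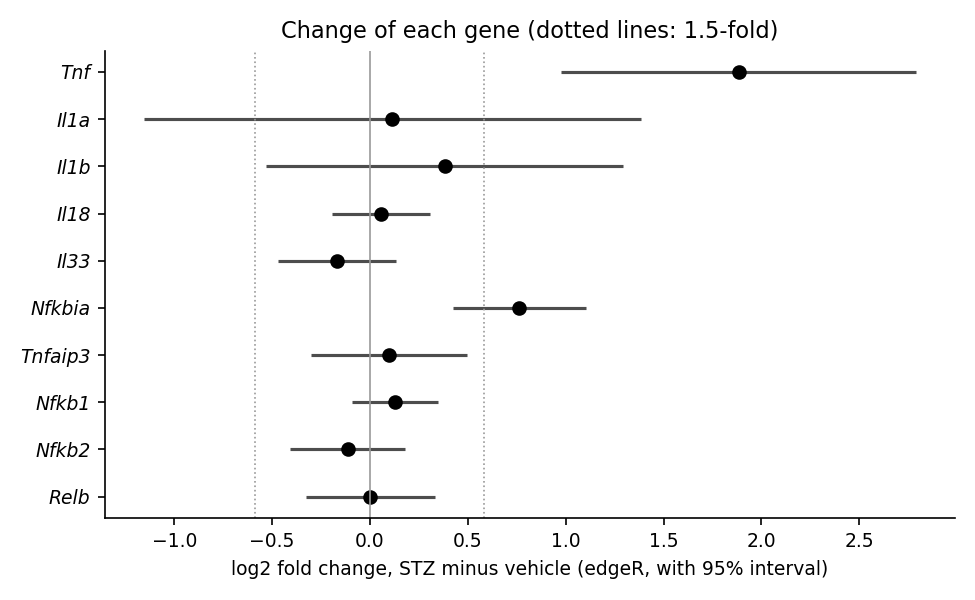
Log2 fold change of each of the 10 genes, STZ minus vehicle, from edgeR (points) with 95% intervals (lines), and dotted lines at 1.5-fold. The interval lies above 0 for Tnf (0.98 to 2.79) and Nfkbia (0.42 to 1.10), and stays between the dotted lines for 6 of the other genes.

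Of the 10 genes, 0 passed an adjusted p under 0.05 with a fold over 1.5 in edgeR, where 0.0224% of the tested genes (5 of 22337) did so. At an unadjusted p under 0.05, 2 of the 10 genes passed, and 11.3% of all tested genes did. With DESeq2, 2 of the 10 genes and 1.05% of all genes passed the threshold. The 10 genes were chosen with earlier results of these data known, and the paper had already reported higher Tnf in these astrocytes. The shares beside their counts are therefore a description. The groups did not overlap, with STZ higher, for the same 2 genes, Tnf and Nfkbia, compared with 8.64% of all genes (9.85% did not overlap with STZ lower). The fitted change was positive for 8 of the 10 genes and for 51.9% of all tested genes, and their median log2 fold change was 0.11, beside 0.01 over all tested genes.

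Because TNF and IL-1 are made by microglia, their counts were also set against the 12 microglial markers within each sample. Tnf had 0.621, 0.50 and 0.971 counts per 1000 microglial marker counts with vehicle and 2.91, 3.01 and 1.93 with STZ, without overlap. The means were 0.697 ± 0.244 and 2.62 ± 0.601 (SD, n = 3 each; exact two-sided permutation test, p = 0.1, the smallest that 3 samples against 3 can give). The ratio overlapped between the groups for Il1a, at 1.97 ± 0.667 with vehicle and 2.22 ± 1.05 with STZ (exact permutation p = 0.8), and for Il1b, at 40.5 ± 25.1 and 52.5 ± 20.9 (exact permutation p = 0.5). The microglial markers themselves summed to 1232, 848 and 899 normalized CPM with vehicle and 889, 1146 and 831 with STZ, and 0 of the 12 had an unadjusted edgeR p under 0.05.

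Markers of other blood and vessel cells also differed between the samples. The 5 mast cell markers summed to 7.27, 9.81 and 16.2 normalized CPM with vehicle and 87.3, 87.0 and 41.3 with STZ, with no overlap. Mast cells are granule-bearing immune cells that store preformed TNF, and of the 5 markers 4 (Cpa3, Cma1, Tpsb2 and Mcpt4, which encode granule proteases) passed the threshold of DESeq2 and 0 that of edgeR. The 6 monocyte markers summed to 62.6, 43.0 and 116 normalized CPM with vehicle and 412, 294 and 137 with STZ, also without overlap, and 3 of the 6 had an unadjusted edgeR p under 0.05 with STZ higher. The 8 neutrophil markers summed to 148, 155 and 859 normalized CPM with vehicle and 1039, 1155 and 497 with STZ, with overlap. All 8 had a positive fitted change, but 0 had an unadjusted edgeR p under 0.05 and 0 passed the threshold of DESeq2. Vehicle replicate 3, the vehicle sample with the most Il1b, was thus also the vehicle sample with the most neutrophil marker RNA, and STZ replicate 3, with the least Tnf and Il1b of the STZ samples, had the least of all 3 marker groups among them. Nfkbia and Il1a followed this order only in part. Among the vehicle samples Nfkbia was also highest in replicate 3 (123 normalized CPM), but among the STZ samples it was highest in replicate 3 (223). Il1a was lowest in STZ replicate 3 (0.834 normalized CPM). It reached 3.25 normalized CPM in vehicle replicate 1, the sample with the lowest mast cell and neutrophil sums. The 12 endothelial markers summed to 72.6, 107 and 238 normalized CPM with vehicle and 428, 319 and 237 with STZ, and 10 of the 12 had an unadjusted edgeR p under 0.05 with STZ higher. The 10 pericyte and smooth muscle markers summed to 139, 152 and 187 normalized CPM with vehicle and 234, 207 and 178 with STZ, and of the 9 tested 4 passed the threshold of DESeq2 with STZ higher, compared with 1 of the 12 endothelial markers. The 6 border macrophage markers went the other way, with 17.0 FPKM with vehicle and 11.6 FPKM with STZ on average, and 3 of the 6 had an unadjusted edgeR p under 0.05 with STZ lower.

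With the mean marker level added to the edgeR fit, the log2 fold change of Tnf was 1.92 with the microglial, 1.40 with the endothelial, 1.37 with the neutrophil, 1.05 with the monocyte and 0.71 with the mast cell score. That of Nfkbia was 0.74, 0.71, 0.73, 0.79 and 0.89 in the same order. That of Il1b was 0.38 with the microglial score and turned negative with the other 4, at -0.39 with the neutrophil (unadjusted p = 0.107, edgeR), -0.65 with the monocyte (unadjusted p = 0.0334, edgeR), -0.82 with the endothelial (unadjusted p = 0.00397, edgeR) and -2.05 with the mast cell score (unadjusted p = 0.0014, edgeR). Its adjusted p was 0.717 or more in these 4 fits. The adjusted p of Tnf was 0.164 with the microglial score (edgeR). With the other 4 it ran from 0.98 (mast cell) to 0.9999 (endothelial), and 0 of all tested genes passed the threshold in those fits. Its unadjusted p was 0.0268 with the neutrophil, 0.0632 with the endothelial, 0.0649 with the monocyte and 0.499 with the mast cell score (edgeR). That of Nfkbia was 0.00798, 0.0212, 0.00831 and 0.0531 in the same order (edgeR). The neutrophil, monocyte and mast cell scores were added after the marker levels had been seen, and each such fit leaves 3 residual degrees of freedom. The mast cell and monocyte marker sums did not overlap between the groups. The endothelial sums overlapped only in vehicle replicate 3 (238 normalized CPM) and STZ replicate 3 (237). Going by these sums, fits with the mast cell and monocyte scores extrapolate, and the fit with the endothelial score has little common range. These fits cannot give the change of a gene at an equal marker level. Tnf per 1000 mast cell marker counts was 105, 43.2 and 53.9 with vehicle and 29.6, 39.7 and 38.7 with STZ. Il1b per 1000 neutrophil marker counts was 163, 184 and 71.6 with vehicle and 65.4, 42.6 and 63.7 with STZ. Mean Il1b was also lower with STZ per 1000 monocyte (527 with vehicle, 188 with STZ) and endothelial marker counts (286 and 149). Tnf with vehicle and STZ was 2.98 ± 2.09 and 2.90 ± 0.372 per 1000 neutrophil marker counts (SD, n = 3 each). Per 1000 endothelial marker counts it was 6.06 ± 3.88 and 7.87 ± 2.57. Il1a per 1000 neutrophil marker counts was 22.0, 10.8 and 1.36 with vehicle and 2.41, 2.81 and 1.68 with STZ, so vehicle replicate 3 lay below every STZ sample. A ratio falls wherever its markers rise more than the gene. The part of these cells in the differences of Tnf, Il1b and Nfkbia was not tested.

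**Figure D3:**
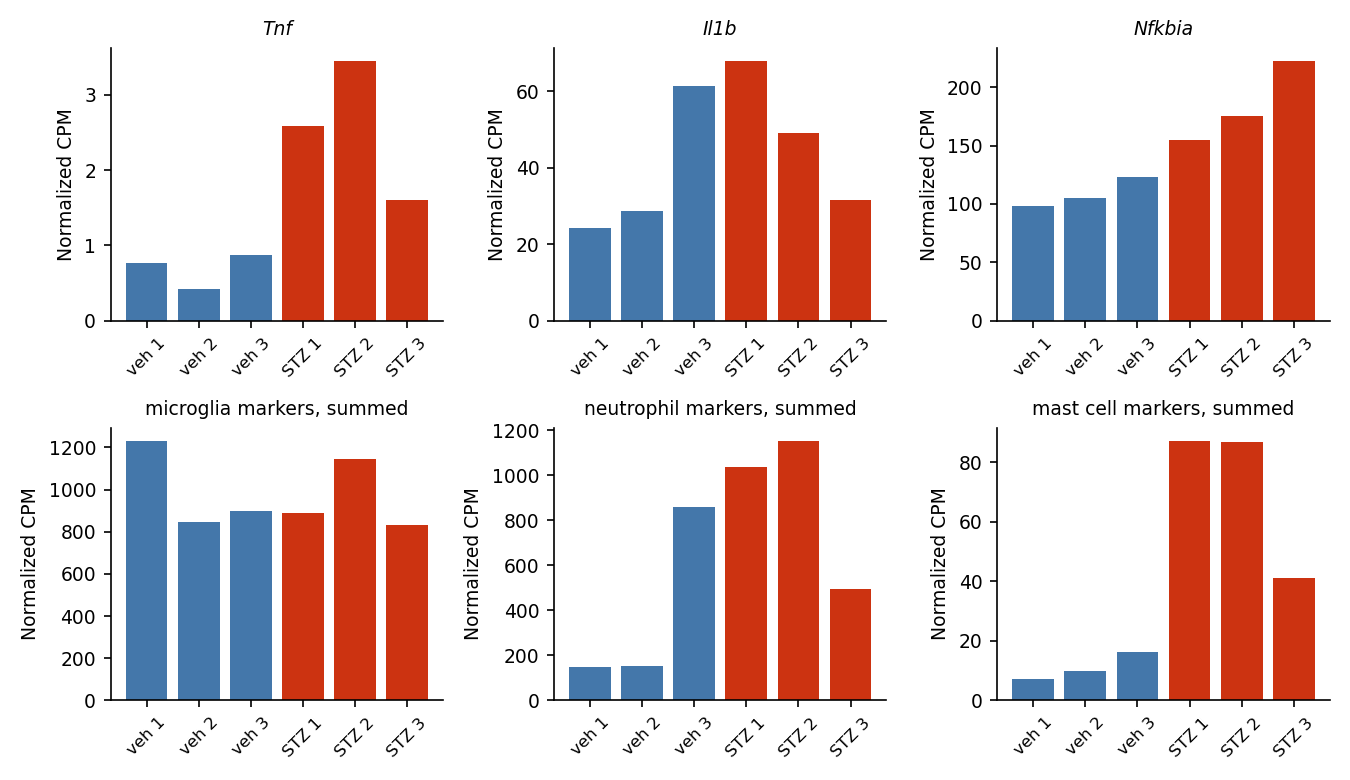
Normalized CPM of Tnf, Il1b and Nfkbia (upper row) and of the summed microglial, neutrophil and mast cell markers (lower row) in each vehicle (blue) and STZ (red) sample. Tnf and the mast cell markers (7.27 to 16.2 against 41.3 to 87.3) are higher in every STZ sample, the neutrophil markers are high in vehicle replicate 3 (859) as is Il1b (61.5), and the microglial markers (831 to 1232) overlap.

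The rest of the pathway was described with lists of its ligands, processing enzymes, receptors, kinases, subunits and targets. In these lists 0 genes passed the edgeR threshold. For each direction, 5.63% of all tested genes had an unadjusted edgeR p under 0.05 with STZ higher and 5.65% with STZ lower.

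Of the other TNF and IL-1 family cytokines, 6 were tested and 0 had an unadjusted p under 0.05, with a median log2 fold change of 0.10. The largest fold among the named ones was that of Tnfsf10, encoding the death ligand TRAIL, at 0.774 ± 0.414 normalized CPM in the vehicle and 1.34 ± 0.347 in the STZ samples (SD, n = 3 each; log2 fold change 0.78, edgeR, adjusted p = 0.518). Tnfsf12, encoding TWEAK, had 9.56 ± 1.95 and 7.08 ± 0.887 normalized CPM, without overlap and lower with STZ (edgeR, adjusted p = 0.457). Of the 11 genes of cytokine processing and release, 1 had an unadjusted p under 0.05, with STZ lower. This was Adam17, the protease that sheds TNF from the cell surface, at 53.3 ± 3.52 normalized CPM in the vehicle and 44.7 ± 3.12 in the STZ samples (edgeR, adjusted p = 0.356). The inflammasome sensors Nlrp3 and Aim2 had log2 fold changes of 0.40 and 0.41, without overlap and with STZ higher (edgeR, adjusted p = 0.548 and 0.493).

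Of 16 receptors, decoys and antagonists tested, 1 had an unadjusted p under 0.05 with STZ higher and 1 with STZ lower, with a median log2 fold change of 0.20. The former was Sigirr, an inhibitory member of the IL-1 receptor family, at 1.70 ± 1.04 normalized CPM in the vehicle and 3.94 ± 0.588 in the STZ samples (edgeR, adjusted p = 0.356). The latter was Ltbr, the lymphotoxin beta receptor, with 43.0 ± 1.09 and 38.1 ± 2.11 normalized CPM (edgeR, adjusted p = 0.433). The IL-1 decoy receptor gene Il1r2 had 2.51 ± 1.62 and 5.65 ± 3.62 normalized CPM with overlapping groups (edgeR, adjusted p = 0.497). Il18r1, encoding a subunit of the IL-18 receptor, did not have a count in every sample and was not tested.

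The 22 adaptors and kinases had a median log2 fold change of -0.07, and 3 had an unadjusted p under 0.05, all with STZ lower. These were Ikbkg and Chuk, encoding the NEMO and IKK-alpha subunits of the IkB kinase complex, and Birc2, encoding the ubiquitin ligase cIAP1, with log2 fold changes of -0.28, -0.20 and -0.21 and adjusted p of 0.366, 0.408 and 0.429 (edgeR). Each of the 3, named for a small p in the same values, was lower in every STZ sample than in every vehicle sample. So were 9.85% of all tested genes. Irak2, a kinase of the IL-1 receptor complex, had 152 ± 0.986 normalized CPM with vehicle and 139 ± 8.64 with STZ (edgeR, adjusted p = 0.541).

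The 15 other NF-kB subunits and inhibitors had a positive fitted change in 13 and a median log2 fold change of 0.20, and 5 had an unadjusted p under 0.05, all with STZ higher. Nfkbib, encoding IkB-beta, had 35.3 ± 1.47 normalized CPM in the vehicle and 43.4 ± 3.46 in the STZ samples (SD, n = 3 each; edgeR, adjusted p = 0.302). Zfp36, encoding tristetraprolin, which destabilizes the mRNA of Tnf, had 91.8 ± 18.9 and 144 ± 33.5 normalized CPM, a log2 fold change of 0.65 (edgeR, adjusted p = 0.347; DESeq2, adjusted p = 0.0571). Nfkbiz, a nuclear IkB, Tnip2, a partner of A20, and Rela, the p65 subunit, had log2 fold changes of 0.30, 0.22 and 0.16 (edgeR, adjusted p from 0.379 to 0.429). These 5 genes were named for their small p in the same values. For each the groups did not overlap, as for 8.64% of all tested genes with STZ higher.

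Of the 23 listed NF-kB target genes outside the feedback loop, 16 were tested, 1 had an unadjusted p under 0.05 with STZ higher and 1 with STZ lower, and the median log2 fold change was 0.22. Il6, Cxcl1, Csf2, Sele, Nos2 and Plau had no count in at least 1 sample, and Ccl20 was at 0 in all 6. Cxcl2, a neutrophil-attracting chemokine, had 1.996 ± 1.54 normalized CPM in the vehicle and 6.11 ± 2.83 in the STZ samples, and its log2 fold change was 1.61 (edgeR, adjusted p = 0.365; DESeq2, adjusted p = 0.0287). Vcam1, an adhesion molecule, had 537.5 ± 29.8 and 403 ± 78.7 normalized CPM, a log2 fold change of -0.42 (edgeR, adjusted p = 0.356). Lcn2, encoding lipocalin-2, ranged widely among the vehicle samples, with 28.3 ± 31.1 normalized CPM, and had 70.3 ± 26.2 with STZ (edgeR, adjusted p = 0.528).

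Immediate-early and heat shock genes, which dissociation of tissue is known to induce, were mixed in direction, with a positive fitted change in 9 and a negative one in 5. Their sum was 757, 676 and 858 normalized CPM with vehicle and 1046, 1005 and 897 with STZ, without overlap, and 5 of the 14 had an unadjusted edgeR p under 0.05 with STZ higher. Dusp1, a phosphatase of MAP kinases, had 145 ± 43.1 normalized CPM in the vehicle and 251 ± 35.9 in the STZ samples (SD, n = 3 each; edgeR, adjusted p = 0.289; DESeq2, adjusted p = 0.00635). Ier3, which NF-kB also induces, had 5.79 ± 1.64 and 12.7 ± 4.68 normalized CPM (edgeR, adjusted p = 0.301; DESeq2, adjusted p = 0.00619). The other 3 were Ier2, Fos and Junb, with log2 fold changes of 0.55, 0.58 and 0.65. All 3 heat shock genes of the list had negative values, with -0.29 for Hspa1a, -0.30 for Hspa1b and -0.10 for Dnajb1 on the log2 scale, as did Egr1 (-0.16) and Jun (-0.05), and these 5 genes, chosen here by their sign, had an unadjusted edgeR p over 0.05. Nfkbia and Zfp36 are themselves rapidly induced genes, and the part of the dissociation in their difference was not tested.

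**Figure D4:**
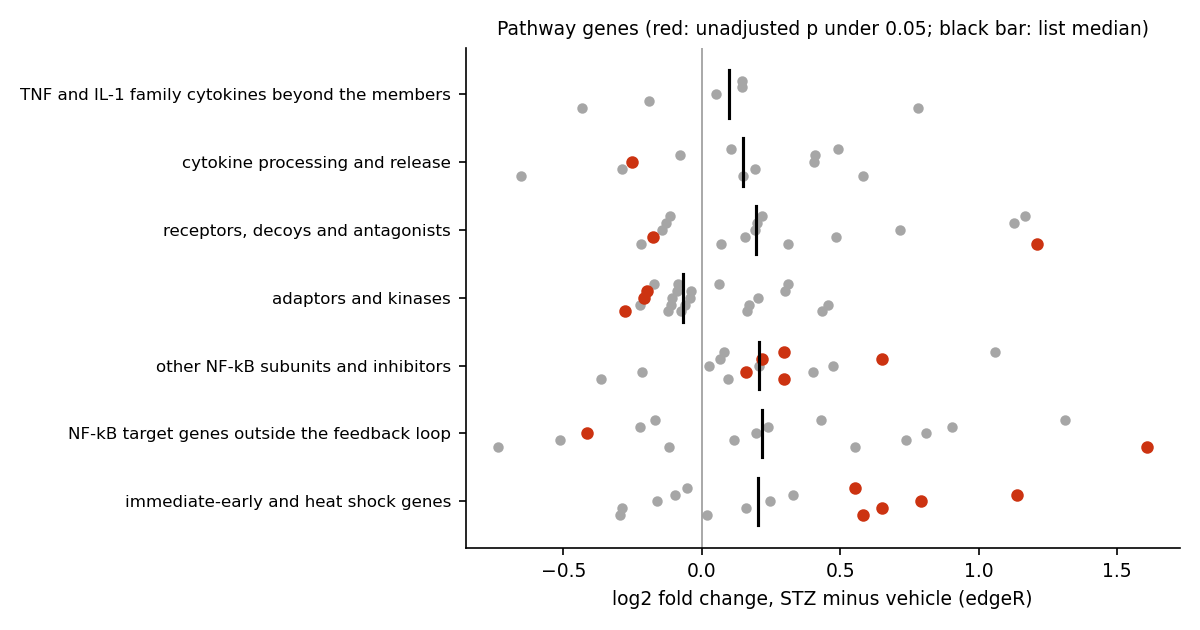
Log2 fold change, STZ minus vehicle (edgeR), of the tested genes of each pathway list, with red points for an unadjusted p under 0.05 and a black bar at the list median. The red points are all to the right of 0 for the other NF-kB subunits and inhibitors (5) and for the immediate-early and heat shock genes (5), and all to the left for the adaptors and kinases (3).

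The genes whose pattern over the 6 samples was most like that of Tnf, by Pearson's r of log2 CPM among 16251 genes with a mean of at least 1 CPM, were A330093E20Rik (r = 0.997), Setdb2 (0.991), Taldo1 (0.991), Necab3 (0.990) and Serpinb1a (0.986). For Nfkbia they were Mrps16 (0.994), LOC102636299 (0.994), Nfkbib (0.990), Vdac3-ps1 (0.989) and Gm20075 (0.989). With 6 points that share the split into groups, 261 genes had an r over 0.9 with Tnf and 282 with Nfkbia, and the values are a description. None of the 5 genes nearest to Tnf was among those nearest to Nfkbia, and r between Tnf and Nfkbia was 0.75.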

How the data were processed

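RNA sequencing of sorted tdTomato-positive cells was analysed for 3 vehicle and 3 STZ samples, grouped by the treatment in their labels. Per the submitters' processing notes, reads were demultiplexed with bcl2fastq 2.20.0, trimmed with Trimmomatic 0.38, aligned to mm10 with HISAT2 2.1.0 and quantified with StringTie 2.1.3b, with SAMtools 1.9 and Bowtie2 also named. The authors deposited, for each gene and sample, an unnormalized whole-number read count. The deposited FPKM, scaled by transcript length and mapped reads, served only to compare levels between genes. The deposited TPM was used only in alternatives. The library kit is named differently in the labels and in the methods. The outlier step of the methods is not described and was not repeated.

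As in the methods, only genes counted in all 6 samples were kept. Counts were tested in R 4.3.3 with edgeR 4.0.16 (TMM, quasi-likelihood test, two-sided, group as the only factor, Benjamini-Hochberg over 22337 genes), calling an adjusted p under 0.05 with a fold over 1.5. Normalized CPM is the count scaled to the TMM-adjusted library size. Log2 CPM used a prior count of 2. Alternatives were DESeq2 1.42.0, limma 3.58.1 on log2(TPM + 1) and log2(TPM + 0.1), other scaling and filters, a replicate block, marker scores as covariates, and leaving out each sample. All pairs of samples differed beyond sampling noise, with a chi-square of 16.2 to 82.4 per gene. Counting intervals and floors cover counting error only. The edgeR, DESeq2 and limma steps were tested on simulated counts.

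The 10 genes, the lists and the markers were chosen with earlier results of these data known. All 10 were named, along with up to 5 genes of each pathway list with the smallest p, the 5 genes nearest to Tnf and to Nfkbia, and markers by level; marker genes named outside that rule were picked after their values were seen. Of 45777 genes, 45679 matched RefSeq by gene number. Tables were made with Python 3.11.15, numpy 2.4.6 and pandas 2.3.3.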

Additional observations from a re-analysis of the deposited data

How the results depend on the processing

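Of the 10 genes, 2 (Tnf and Nfkbia) passed the threshold with DESeq2 and 0 in every other fit, while 1 to 3 of them had an unadjusted p under 0.05. Over all genes, 5 passed in edgeR, 234 with DESeq2 and 10 with robust fitting; 0 passed in limma with either pseudocount (2635 and 2612 at an unadjusted p under 0.05), with the endothelial (918), neutrophil (1061), monocyte (1007) or mast cell score (1305), or with the replicate block (1793), and 0 to 1 without 1 sample. Same-numbered samples had correlations of -0.10, -0.16 and -0.18 in their deviations from the group means. Over all pairs of a vehicle and an STZ sample, the values ran from -0.18 to 0.16. With 3 samples per group, these values cannot show whether the replicate numbers pair the samples. With the replicate block, the adjusted p (edgeR) was 0.60 for Tnf and 0.517 for Nfkbia. Leaving out 1 sample in turn, the log2 fold change was 1.60 to 2.13 for Tnf (adjusted p 0.209 to 0.559, edgeR) and 0.60 to 0.87 for Nfkbia (adjusted p 0.198 to 0.482), and neither changed sign in any of the 19 alternatives; Tnf was 1.19 in limma on log2(TPM + 1).

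Differences of 7 genes changed sign; the cause was not tested. Leaving out 1 sample gave -0.28 to 0.62 for Il1a, -0.0063 to 0.15 for Il18 and -0.086 to 0.056 for Relb. Il1a was -0.15 with the monocyte score. Il1b was -0.82 with the endothelial, -0.39 with the neutrophil, -0.65 with the monocyte and -2.05 with the mast cell score. Il33 was 0.12 with the endothelial and 0.26 with the mast cell score, under which Tnfaip3 was -0.018 and Nfkb1 -0.13. Relb, near 0 throughout, was -0.0033 with DESeq2, -0.0031 with its size factors, -0.0059 without a filter, -0.0011 with filterByExpr, -0.013 and -0.014 in limma, and -0.011, -0.044 and -0.083 with the endothelial, neutrophil and monocyte scores. The STZ minus vehicle difference per 1000 microglial marker counts was 1.72 to 2.27 for Tnf without 1 sample, -0.087 to 0.856 for Il1a and -0.058 to 25.8 for Il1b. With 3 pools per group and 22 to 201 counts, Tnf has the fewest counts of the 10 genes in 3 of the samples, and the fits with a marker score leave 3 residual degrees of freedom. Fits with the mast cell or monocyte score also extrapolate, since those marker sums did not overlap between the groups, and the endothelial sums barely did.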
